A study of Mus musculus with 9 samples.

Results

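Dsp, Epha3, Ajuba, Dpysl3, Muc20 and Chit1 are 6 of the 29229 genes in a table of raw read counts from sorted mouse spleen T cells, and are best known from epithelial, neural or macrophage biology rather than from T cells. They were chosen because their levels were high in T cells of allogeneic transplant recipients and near 0 in T cells of syngeneic recipients and of naive mice. They were thus selected on their measured levels in all 3 groups, and those levels are given below as a description, with no test.

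The table holds 9 total RNA libraries, 3 per group, each of CD3+ CD45.2+ LiveDead- cells sorted from spleen. Allogeneic recipients were CByJ.SJL(B6)-Ptprca/J mice (H-2d, CD45.1), given 8 Gy and 1000000 splenic T cells of C57BL/6 donors (H-2b, CD45.2), with the spleen taken 7 days later. Syngeneic recipients were B6.SJL-Ptprca Pepcb/BoyJ mice (H-2b, CD45.1), given 9.5 Gy and 8500000 C57BL/6 T cells, with the spleen also taken at day 7. Both kinds of recipient also received 5000000 T-cell-depleted C57BL/6 bone marrow cells, whose progeny carry CD45.2 as well. Each transplant library is a pool of 2 to 4 recipients. Naive libraries came from healthy C57BL/6 mice without a transplant, and all mice were females of 8 to 12 weeks kept on acidified water. Recipient strain, irradiation and T-cell dose all differ between the allogeneic and syngeneic groups, so their parts in a difference cannot be told apart.

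Desmoplakin, the product of Dsp, ties intermediate filaments to desmosomes, the junctions that hold epithelial and heart muscle cells together. Ajuba is a LIM-domain scaffold at adherens junctions that restrains the LATS kinases of the Hippo pathway, and Muc20 is a membrane mucin whose human form binds the receptor MET. Epha3 is a receptor tyrosine kinase for ephrin-A ligands, and Dpysl3, also called CRMP4, is a cytosolic phosphoprotein of growing axons in the collapsin response mediator family. Chit1 is a secreted chitinase that activated human macrophages make.

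The bases just before the start site are shown for 3 of the genes, because they hold different sets of motifs named for factors used in activated T cells. Motifs were searched on both strands of RefSeq promoter windows (GRCm38.p6), from 250 bases before the start site to 50 after it. A window was found for 5 of the 6 genes. The sequences run 5′ to 3′ on the gene's strand and end at the base before the start site. Capitals mark matches to AP-1 (TGANTCA), T-box (GGTGTGA) and RUNX (TGTGGT) motifs; the Dsp stretch, chr13:38151044-38151293 on the plus strand, has none, the Muc20 stretch, chr16:32797436-32797685 on the minus strand, has T-box and RUNX, and the Chit1 stretch, chr1:134110992-134111241 on the plus strand, has all 3.
Dsp: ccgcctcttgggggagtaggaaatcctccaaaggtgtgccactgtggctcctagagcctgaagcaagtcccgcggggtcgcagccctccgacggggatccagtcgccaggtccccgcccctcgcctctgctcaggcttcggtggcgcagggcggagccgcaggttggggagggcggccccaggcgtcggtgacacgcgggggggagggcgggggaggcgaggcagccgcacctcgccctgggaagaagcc
Muc20: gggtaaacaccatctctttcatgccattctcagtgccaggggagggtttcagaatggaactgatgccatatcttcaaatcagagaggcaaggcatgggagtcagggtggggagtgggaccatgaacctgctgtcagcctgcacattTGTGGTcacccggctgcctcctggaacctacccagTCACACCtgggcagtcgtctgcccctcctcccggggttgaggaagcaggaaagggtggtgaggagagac
Chit1: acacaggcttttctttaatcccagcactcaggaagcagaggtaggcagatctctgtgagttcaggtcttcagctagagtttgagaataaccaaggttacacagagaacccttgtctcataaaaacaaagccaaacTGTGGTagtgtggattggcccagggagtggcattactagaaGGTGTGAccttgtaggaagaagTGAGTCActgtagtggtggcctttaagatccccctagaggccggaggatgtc

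The AP-1 match of Chit1 lies 52 bases before the start site, and 7.81% of the 32851 promoter windows hold that motif. T-box matches lie 74 bases before the start site in Chit1 and 69 in Muc20, where the match is on the opposite strand, and 3.98% of all windows hold one. RUNX matches lie 115 bases before the start site in Chit1 and 104 in Muc20, against 16.8% of all windows. The STAT motif TTCNNNGAA was found in Epha3, against 8.30% of windows, and the short NFAT core GGAAA in Dsp, Epha3, Ajuba and Muc20, against 61.3% of windows. The CRE motif TGACGTCA (1.79% of windows) and the E-box CACGTG (7.15%) were found in none of the 5. The T-box, RUNX and AP-1 matches thus fall in Muc20 and Chit1 and in none of Dsp, Epha3 and Ajuba. GC made up 72.4% of the Dsp stretch, 57.2% of that of Muc20 and 48.0% of that of Chit1, with a median of 52.4% over the same stretch of all windows. These matches are letters in a window and were not tested as binding sites.

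Libraries held 103953932 to 176678189 counts, so 1 count is at most 0.00962 CPM, the scale used for levels below, on which the counts of a library add up to 1000000. The ribosomal RNA locus genes Gm26917 and Gm42418 took 17.2%, 9.06% and 7.87% of the counts of the allogeneic libraries, 19.4 to 22.4% of the syngeneic and 15.8 to 18.8% of the naive ones. Markers of T cells were abundant in every library, with a summed level of 9 genes of 3669 to 3862 CPM in allogeneic, 2526 to 3015 CPM in syngeneic and 3643 to 3962 CPM in naive libraries. Erythroid markers summed to 12.0 to 33.7 CPM in allogeneic, 1783 to 4597 CPM in syngeneic and 1.31 to 1.63 CPM in naive libraries. In these bulk samples, more cells with a transcript and more transcript per cell cannot be told apart.

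Summed over the 6 genes, the level was 79.8, 110 and 106 CPM in the allogeneic libraries, against 1.83, 2.42 and 2.14 CPM in the syngeneic and 1.36, 2.01 and 1.74 CPM in the naive libraries. For each gene, the lowest allogeneic library stood above the highest syngeneic and the highest naive library. Among all 19609 genes tested, 27.4% separate allogeneic from syngeneic libraries in this way and 32.5% separate allogeneic from naive libraries; the separation of the 6 was a condition of their choice. The allogeneic group held 94.8 to 99.0% of the 3 group means added together.

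**Figure D1:**
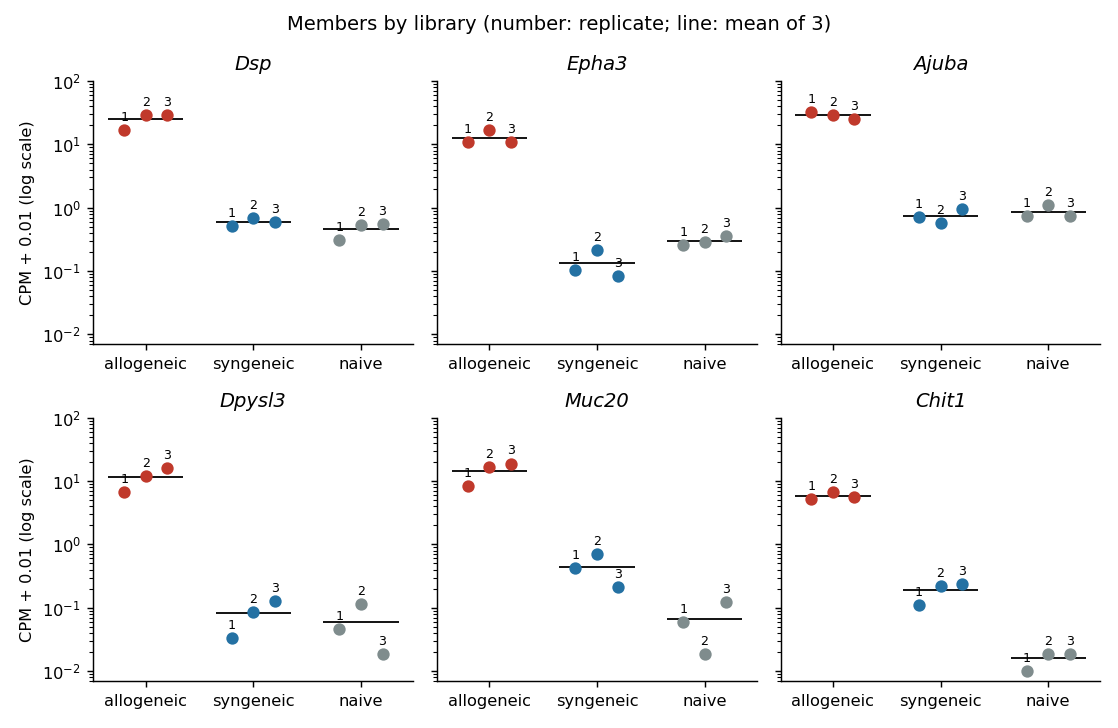
Level of each gene in each of the 9 libraries, as CPM + 0.01 on a log scale; the number beside a point is the replicate and the line is the mean of 3. The allogeneic points of each gene lie above every syngeneic and naive point, with the smallest gap in Muc20 and the lowest naive values in Chit1.

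Of the genes of epithelial use, Dsp (ENSMUSG00000054889, chr13:38151294-38198577, plus strand, GRCm38) had 16.7, 28.9 and 29.4 CPM in the allogeneic libraries, against 0.499, 0.686 and 0.581 CPM in the syngeneic and 0.304, 0.529 and 0.541 CPM in the naive libraries. Its mean of 25 ± 7.19 CPM in allogeneic libraries was 42.5 times the mean of 0.589 ± 0.094 CPM in syngeneic libraries and 54.6 times that of 0.458 ± 0.134 CPM in naive libraries (SD, n = 3 each). Allogeneic library 1 was the lowest of its group, and syngeneic and naive libraries overlapped. Gm10129, which overlaps Dsp on the opposite strand, averaged 0.0362 CPM in allogeneic, 0.0154 CPM in syngeneic and 0 CPM in naive libraries.

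Ajuba (ENSMUSG00000022178, chr14:54567472-54577558, minus strand) had 32.2, 29.1 and 25.4 CPM in the allogeneic libraries, against 0.714, 0.556 and 0.932 CPM in the syngeneic and 0.723, 1.08 and 0.724 CPM in the naive libraries. Allogeneic libraries averaged 28.9 ± 3.39 CPM, 39.4 times the 0.734 ± 0.188 CPM of syngeneic and 34.3 times the 0.841 ± 0.204 CPM of naive libraries. Here allogeneic library 1 was the highest of its group, and syngeneic and naive libraries again overlapped.

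Muc20 (ENSMUSG00000035638, chr16:32777419-32797435, minus strand) had 8.22, 16.5 and 18.9 CPM in the allogeneic libraries, against 0.407, 0.686 and 0.203 CPM in the syngeneic and 0.0506, 0.00882 and 0.113 CPM in the naive libraries. Allogeneic libraries averaged 14.5 ± 5.61 CPM, 33.7 times the 0.432 ± 0.243 CPM of syngeneic and 252 times the 0.0576 ± 0.0526 CPM of naive libraries. The naive level rests on 21 counts and leans on library 3, without which the log2 ratio over naive is 8.93 instead of 7.98. The lowest syngeneic library lay above the highest naive library, which 25.4% of all genes tested showed, and the syngeneic mean was 7.50 times the naive one.

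Of the genes of neural use, Epha3 (ENSMUSG00000052504, chr16:63543534-63864175, minus strand) had 10.8, 16.6 and 10.7 CPM in the allogeneic libraries, against 0.0921, 0.204 and 0.0738 CPM in the syngeneic and 0.246, 0.282 and 0.349 CPM in the naive libraries. Allogeneic libraries averaged 12.7 ± 3.37 CPM, 103 times the 0.123 ± 0.0705 CPM of syngeneic and 43.5 times the 0.292 ± 0.0522 CPM of naive libraries. Epha3 alone of the 6 had its highest syngeneic library below its lowest naive library, as 31.1% of all genes tested did, and its syngeneic mean was 0.422 times the naive mean.

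Dpysl3 (ENSMUSG00000024501, chr18:43320984-43438286, minus strand) had 6.76, 11.9 and 16.0 CPM in the allogeneic libraries, against 0.0230, 0.0742 and 0.120 CPM in the syngeneic and 0.0362, 0.106 and 0.00872 CPM in the naive libraries. Allogeneic libraries averaged 11.6 ± 4.61 CPM, 160 times the 0.0724 ± 0.0485 CPM of syngeneic and 230 times the 0.0502 ± 0.0501 CPM of naive libraries. The syngeneic level rests on 24 counts and the naive one on 18, of which 12 were in library 2; without that library the log2 ratio over naive is 9.01 instead of 7.85. Syngeneic and naive libraries overlapped.

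Chit1 (ENSMUSG00000026450, chr1:134111242-134151540, plus strand) had 5.15, 6.81 and 5.63 CPM in the allogeneic libraries, against 0.0998, 0.213 and 0.231 CPM in the syngeneic and 0, 0.00882 and 0.00872 CPM in the naive libraries. Allogeneic libraries averaged 5.86 ± 0.855 CPM, 32.3 times the 0.181 ± 0.0711 CPM of syngeneic libraries. Naive libraries held 2 counts in all, against 2395 in allogeneic libraries. With each sum divided by the summed library totals of its group, the ratio was 1101. Its 95% exact interval was 304 to 9095, for counting error only. That interval makes no allowance for the choice of Chit1 on these same levels. The 61 counts in syngeneic libraries gave a ratio over naive of 32.2, with an interval of 8.55 to 272. The lowest syngeneic library lay above the highest naive library, which 25.4% of all genes tested showed.

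Per length of exon, Ajuba was the highest of the 6 in allogeneic libraries, at 7.92 ± 0.931 CPM per kb of merged exon, and its lowest library (6.96) lay above the highest Muc20 library (4.70). Muc20 (3.61 ± 1.39), Chit1 (3.23 ± 0.471) and Dsp (2.59 ± 0.744) came next, followed by Dpysl3 (1.75 ± 0.698) and Epha3 (1.46 ± 0.388), all in CPM per kb. Each of these 5 overlapped its neighbour in that order over the 3 libraries. The mean of allogeneic libraries 2 and 3 was 2.15 times library 1 for Muc20, 2.06 times for Dpysl3, 1.74 times for Dsp, 1.27 times for Epha3 and 1.21 times for Chit1, but 0.847 times for Ajuba. Allogeneic library 1 also had the highest share of ribosomal RNA locus counts of its group. Leaving Gm26917 and Gm42418 out of the totals was 1 of the alternative runs for the ratios of group means. The part of that share in the differences between allogeneic libraries was not tested.

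Few genes of the table had the same shape. With every allogeneic library at or above 1 CPM and every syngeneic and naive library under 0.5 CPM, 95 of 29229 genes (0.325%) were found, 74 of them protein-coding, and 36 genes had the matching shape with syngeneic libraries in place of allogeneic ones. Epha3, Dpysl3 and Chit1 were 4th, 5th and 9th of the 95 by mean allogeneic CPM. Dsp, Ajuba and Muc20 fell outside, since their highest syngeneic or naive library had 0.686, 1.08 and 0.686 CPM. With the limit at 1.1 CPM, chosen after these values were seen, 257 genes (0.879%) had the shape, and by allogeneic level Ajuba was 1st, Dsp 3rd, Muc20 6th, Epha3 8th, Dpysl3 10th and Chit1 28th. None of the genes of the cell type marker lists was among the 95, whose median allogeneic level was 2.04 CPM. Immunoglobulin V segments, which B-lineage cells rearrange and transcribe, made up 10 of the 95 and are given after their values were seen. They averaged 1.23 to 2.74 CPM in allogeneic libraries, with Ighv1-4 the highest, and reached at most 0.436 CPM in a syngeneic and 0.333 CPM in a naive library. The part of B-lineage cells in the levels of the 6 genes was not tested.

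The most abundant others of the 95 included the glycine decarboxylase gene Gldc at 28.1 ± 5.15 CPM in allogeneic libraries, against 0.158 ± 0.0815 CPM in syngeneic and 0.0511 ± 0.0374 CPM in naive libraries. The lectin-like receptor gene Klrb1b had 24.4 ± 13.4 CPM in allogeneic, 0.246 ± 0.140 CPM in syngeneic and 0.261 ± 0.0187 CPM in naive libraries. The serine protease inhibitor gene Serpinb9b had 15.9 ± 3.05 CPM in allogeneic, 0.242 ± 0.0964 CPM in syngeneic and 0.0291 ± 0.0430 CPM in naive libraries. Il13, a type 2 cytokine gene, had 8.40 ± 1.01 CPM in allogeneic, 0.135 ± 0.0651 CPM in syngeneic and 0.0424 ± 0.0397 CPM in naive libraries. The long noncoding RNAs 2310031A07Rik and Miat averaged 6.63 and 6.07 CPM in allogeneic libraries, and Ermn, Serpinb1b, P2ry12 and Erc2 4.77 to 5.08 CPM.

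**Figure D2:**
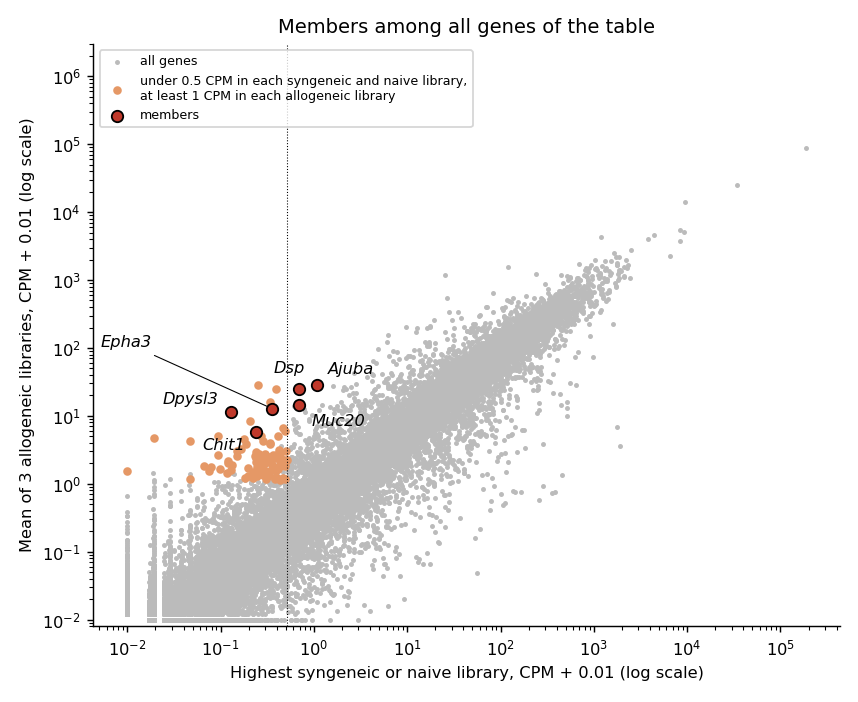
Mean CPM of the 3 allogeneic libraries against the highest syngeneic or naive library for every gene, both as CPM + 0.01 on log scales; the dotted line is 0.5 CPM. Epha3, Dpysl3 and Chit1 lie among the 95 genes left of the line (orange), and Dsp, Ajuba and Muc20 lie to its right.

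Genes that went up and down over the 9 libraries most like each of the 6 were found by Pearson's r of log2(CPM + 0.1). This r takes no account of the level or of the size of a change. Sec22b, named below for Epha3, averaged 54.7 CPM in allogeneic, 41.0 CPM in syngeneic and 42.7 CPM in naive libraries. Faxc, named for Ajuba, averaged 4.56, 0.144 and 0.153 CPM in the same order. The r is given as a description, since the 9 points fall into 3 groups. Crmp1 (r = 0.998), the laminin subunit gene Lamc1 (0.997) and Podnl1 (0.997) were closest to Dsp. Faxc (0.997), Dok2 (0.996) and the inhibitory receptor gene Lag3 (0.996) were closest to Ajuba, and Gng3 (0.991), Actr2 (0.990) and Dusp5 (0.990) to Muc20. Ei24 (0.999), Sec22b (0.997) and Plcd3 (0.995) were closest to Epha3, Ptpn11 (0.996), Sec24d (0.996) and Arap2 (0.996) to Dpysl3, and the xanthine dehydrogenase gene Xdh (0.999), Mapre2 (0.998) and Clcn5 (0.998) to Chit1. The 15 pairs among the 6 genes had r of 0.918 to 0.993, with Dsp and Dpysl3 the closest pair and Epha3 and Muc20 the farthest. High r among the 6 follows from their choice by level in the 3 groups. Among all genes searched, Dpysl3 ranked 27th by r to Dsp, and Muc20 ranked 1229th by r to Epha3. Lag3 averaged 207 CPM in allogeneic, 8.47 CPM in syngeneic and 8.35 CPM in naive libraries.

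To place the 6 genes beside their molecular partners and families, 133 related genes in 9 lists were followed in the edgeR quasi-likelihood fit of all 19609 genes. Of the 94 tested, 31 rose and 25 fell in allogeneic against syngeneic libraries at an adjusted p under 0.05, where 45.0% of all genes were called, 24.3% higher and 20.7% lower. Their median log2 fold change was -0.02, as was that of all genes. Against naive libraries 41 of the 94 rose and 21 fell in allogeneic libraries (57.7% of all genes called), with a median of 0.31 and -0.01 over all genes. In syngeneic against naive libraries 32 rose and 15 fell (41.9% of all genes called), with a median of 0.29 and 0.01 over all genes. These comparisons share libraries, and the fold changes below are on the log2 scale with their SE.

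The desmosome list held 19 genes, counting the intermediate filament genes Vim and Des, of which 15 were in the table and 9 were tested. Of the 9, 4 rose and 2 fell in allogeneic against syngeneic libraries, with a median of 0.50. Of those in the table but not tested, the cadherin genes Dsg3, Dsg4 and Dsc2 had 0 counts in allogeneic libraries. Pkp1, Ppl and Des had 9, 54 and 6. Perp, a desmosomal membrane protein, had 4.22, 3.66 and 3.51 CPM in allogeneic, 0.599, 0.519 and 0.295 CPM in syngeneic and 0.0578, 0.159 and 0.122 CPM in naive libraries, a rise of 3.02 ± 0.35 over syngeneic (edgeR adjusted p = 4.19e-05). The plakophilin gene Pkp3 rose by 1.60 ± 0.12 over syngeneic to 120 ± 5.10 CPM in allogeneic libraries, against 39.8 ± 3.16 CPM in syngeneic and 61.7 ± 7.08 CPM in naive libraries (edgeR adjusted p = 2.05e-06). The intermediate filament gene Vim, by far the most abundant of the list, had 1753 ± 116 CPM in allogeneic, 655 ± 43.1 CPM in syngeneic and 285 ± 8.14 CPM in naive libraries, a rise of 1.44 ± 0.11 over syngeneic. Pkp4 and Jup are named after their values were seen. Pkp4 fell by 1.17 ± 0.09 to 33.0 ± 3.90 CPM in allogeneic libraries, against 74.8 ± 6.24 CPM in syngeneic ones (edgeR adjusted p = 1.84e-06). Jup had 4.29 ± 1.85 CPM in allogeneic, 3.05 ± 0.793 CPM in syngeneic and 7.76 ± 0.775 CPM in naive libraries. It was not called against syngeneic and fell by 0.83 ± 0.26 against naive libraries (edgeR adjusted p = 0.0163). Dsg2, a desmosomal cadherin, had 1.37, 0.255 and 0.202 CPM in allogeneic, 2.21, 2.82 and 3.03 CPM in syngeneic and 0.383, 0.609 and 0.410 CPM in naive libraries. It fell by 2.06 ± 0.61 against syngeneic (edgeR adjusted p = 0.0176), a call lost without allogeneic replicate 2 (edgeR adjusted p = 0.0564) or 3 (edgeR adjusted p = 0.0506), while without replicate 1 the change was -3.57.

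Among Eph receptors, the family of Epha3, 3 of 9 tested genes rose and 4 fell in allogeneic against syngeneic libraries, with a median of -0.79. Epha1 had 1.25, 1.24 and 1.37 CPM in allogeneic, 0.238, 0.167 and 0.0830 CPM in syngeneic and 0.0723, 0.0970 and 0.200 CPM in naive libraries, a rise of 2.96 ± 0.44 (edgeR adjusted p = 0.000255). Ephb3 rose by 2.38 ± 0.30 to 1.34 ± 0.203 CPM in allogeneic libraries, against 0.260 ± 0.0868 CPM in syngeneic libraries. Ephb2 fell by 1.75 ± 0.27 to 0.497 ± 0.0590 CPM in allogeneic libraries, against 1.70 ± 0.507 CPM in syngeneic libraries. Ephb6, an Eph receptor without kinase activity and the most abundant of the list, had 10.5 ± 0.625 CPM in allogeneic, 14.2 ± 0.901 CPM in syngeneic and 46.9 ± 3.42 CPM in naive libraries, and fell by 0.43 ± 0.11 against syngeneic libraries. It fell by 2.11 ± 0.11 against naive libraries.

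Of 6 tested ephrin ligands, 2 rose and 2 fell in allogeneic against syngeneic libraries. Efna5, a ligand of Epha3, had 1.41, 1.75 and 0.972 CPM in allogeneic, 0.00767, 0.0371 and 0.0184 CPM in syngeneic and 0.00723, 0.0176 and 0.0174 CPM in naive libraries. Its counts summed to 577 in allogeneic, 7 in syngeneic and 5 in naive libraries. Divided by summed library totals, these gave ratios of 71.7 over syngeneic (95% exact interval 34.6 to 179) and 106 over naive (45.19 to 328). Every allogeneic library lay above all syngeneic and naive ones, and its rise over syngeneic was 6.04 ± 0.48 (edgeR adjusted p = 2.54e-06), or 6.65 without syngeneic replicate 2. Efna2 and Efnb1 fell by 2.27 ± 0.60 and 0.81 ± 0.17 against syngeneic libraries.

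Of 5 tested relatives of Ajuba with zyxin-type LIM domains, 1 rose and 2 fell in allogeneic against syngeneic libraries. The focal adhesion gene Zyx rose by 0.90 ± 0.11 to 586 ± 89.6 CPM in allogeneic libraries, against 315 ± 34.3 CPM in syngeneic and 263 ± 8.598 CPM in naive libraries (edgeR adjusted p = 8.45e-05). Lpp fell by 0.53 ± 0.13, and Limd1, which belongs to the Ajuba subfamily, had 165 ± 14 CPM in allogeneic libraries, against 148 ± 7.89 CPM in syngeneic ones (0.17 ± 0.08, not called). Of 19 tested Hippo pathway genes, 8 rose and 4 fell, with a median of 0.23. The transcription factor gene Tead1 rose by 2.26 ± 0.33 to 1.56 ± 0.439 CPM in allogeneic libraries, against 0.327 ± 0.0904 CPM in syngeneic libraries, and the angiomotin family gene Amotl1 rose by 1.78 ± 0.22 to 3.77 ± 0.156 CPM in allogeneic libraries, against 1.12 ± 0.263 CPM in syngeneic libraries. The kinase gene Lats2 fell by 0.71 ± 0.11 to 42.5 ± 7.82 CPM in allogeneic libraries, against 70.0 ± 1.48 CPM in syngeneic and 109 ± 4.92 CPM in naive libraries. Stk4, the most abundant gene of that list, was not called, with 414 ± 38.0 CPM in allogeneic libraries, against 456 ± 19.2 CPM in syngeneic ones.

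Of 3 tested relatives of Dpysl3, 2 rose and none fell in allogeneic against syngeneic libraries, and 3 rose against naive libraries. Crmp1 had 67.5, 81.6 and 78.8 CPM in allogeneic, 9.74, 10.5 and 10.1 CPM in syngeneic and 8.80, 10.7 and 10.1 CPM in naive libraries, a rise of 2.92 ± 0.09 over syngeneic (edgeR adjusted p = 5.18e-09). Syngeneic and naive libraries of Crmp1 overlapped. Dpysl2 rose by 0.69 ± 0.10 to 291 ± 36.8 CPM in allogeneic libraries, against 181 ± 10.4 CPM in syngeneic and 206 ± 6.46 CPM in naive libraries. Of 26 tested semaphorin, plexin and neuropilin genes, whose signals this family relays in neurons, 8 rose and 9 fell. The neuropilin genes went opposite ways: Nrp1 rose by 2.92 ± 0.15 to 196 ± 37.6 CPM in allogeneic libraries, against 26.1 ± 5.15 CPM in syngeneic and 50.1 ± 7.98 CPM in naive libraries. Nrp2 fell by 4.14 ± 0.16 to 1.00 ± 0.0905 CPM in allogeneic libraries, against 18.01 ± 1.66 CPM in syngeneic and 12.0 ± 0.982 CPM in naive libraries (edgeR adjusted p = 1.6e-08). Sema7a and Sema4c rose by 2.25 ± 0.17 and 2.85 ± 0.25, and Sema4d, the most abundant semaphorin gene of the list, had 892 ± 120 CPM in allogeneic libraries, against 547 ± 39.8 CPM in syngeneic ones, a rise of 0.71 ± 0.11.

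Of 10 tested mucin and MET signalling genes, 2 rose and 1 fell in allogeneic against syngeneic libraries, and 6 rose and none fell against naive libraries. Muc4, a membrane mucin whose gene overlaps Muc20 on the opposite strand, had 0.263, 0.238 and 0.539 CPM in allogeneic, 0.00767, 0 and 0.0184 CPM in syngeneic and 0.0506, 0.0176 and 0 CPM in naive libraries. It had 129 counts in allogeneic libraries against 3 in syngeneic libraries. Divided by summed library totals, these gave a ratio of 37.4 (95% exact interval 12.5 to 184), and the edgeR adjusted p was 0.000647. The fall was that of the secreted mucin gene Muc6 (-2.06, edgeR adjusted p = 0.0373), at 0.0320 ± 0.0341 CPM in allogeneic samples, against 0.144 ± 0.0606 CPM in syngeneic ones. That call was lost with DESeq2 (adjusted p = 0.0776), without the filter on low counts (edgeR adjusted p = 0.0577), with only those 2 groups in the fit (edgeR adjusted p = 0.0555), and without allogeneic replicate 2 or 3 or syngeneic replicate 2 or 3 (edgeR adjusted p = 0.123, 0.0796, 0.140 and 0.0674). Without allogeneic replicate 1 the log2 fold change of Muc6 was -3.05. Whether the counting used strand is not known, so reads of Muc20 and Muc4 may be mixed. Muc1 rose by 1.43 ± 0.27 to 1.62 ± 0.210 CPM in allogeneic libraries, against 0.607 ± 0.147 CPM in syngeneic libraries. Met, the receptor that human MUC20 binds, had 2.61, 0.906 and 1.03 CPM in allogeneic, 1.07, 4.00 and 4.71 CPM in syngeneic and 0, 0.00882 and 0.0349 CPM in naive libraries. Against naive libraries, which held 5 counts, Met rose by 6.77 ± 0.92 in allogeneic and by 7.79 ± 0.92 in syngeneic libraries, or by 8.35 and 9.36 without naive replicate 3. Its difference of -1.02 ± 0.57 between allogeneic and syngeneic libraries was not called, but was without allogeneic replicate 1 (-1.76, edgeR adjusted p = 0.0328) or syngeneic replicate 1 (-1.42, edgeR adjusted p = 0.0302).

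Of 7 tested chitinase family genes, 1 rose and 1 fell in allogeneic against syngeneic libraries. Chil3, a chitinase-like gene of mouse macrophages and neutrophils, had 86.7, 70.8 and 108 CPM in allogeneic, 11.8, 40.3 and 36.0 CPM in syngeneic and 0.0506, 0.0176 and 0.0436 CPM in naive libraries. Chil3 rose by 1.63 ± 0.33 over syngeneic libraries (edgeR adjusted p = 0.00198), and in syngeneic libraries it rose by 9.56 ± 0.58 over naive ones. Chil1, the gene next to Chit1, had 3.44, 4.79 and 7.62 CPM in allogeneic, 3.23, 8.18 and 9.78 CPM in syngeneic and 0.0145, 0.00882 and 0.0174 CPM in naive libraries. Its difference between allogeneic and syngeneic libraries was -0.40 ± 0.34 and was not called, except without syngeneic replicate 1 (-0.72, edgeR adjusted p = 0.0343). In the same syngeneic libraries Chit1 averaged 0.181 CPM. Neutrophil markers summed to 599 to 1085 CPM in allogeneic, 405 to 1356 CPM in syngeneic and 1.53 to 5.05 CPM in naive libraries, and their part in the values of Chil3 and Chil1 was not tested.

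**Figure D3:**
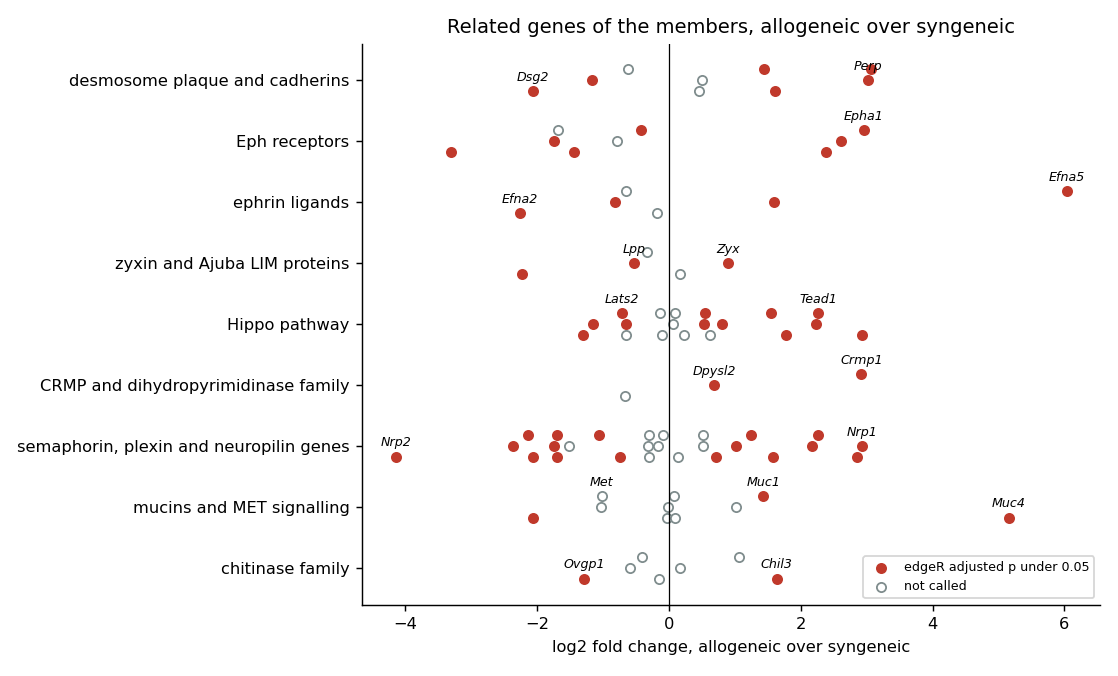
Log2 fold change of each tested related gene in allogeneic over syngeneic libraries, by list; filled points passed an edgeR adjusted p of 0.05 and open points did not. Rises and falls stand in most lists, with Efna5 (6.04) and Nrp2 (-4.14) at the ends.

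To see whether the change extended along the chromosome, the 3 nearest protein-coding genes on each side of each gene were read in the same fit. Of these 36 genes 24 were tested, of which 10 rose and 2 fell in allogeneic against syngeneic libraries, with a median of 0.19. The 12 called genes stand beside a share of 45.0% called over all genes, 24.3% higher and 20.7% lower. Snrnp48, 6.36 kb from Dsp, had a difference of -0.20 and was not called, and Txndc5, 302 kb from Dsp, rose by 1.05 ± 0.09. Next to Ajuba, 4931414P19Rik at 6.11 kb rose by 0.41 ± 0.12, a call lost without allogeneic replicate 3 or syngeneic replicate 2, and Haus4 at 12.9 kb by 0.38 ± 0.11, a call lost without syngeneic replicate 2. Next to Epha3, Pros1 at 614 kb rose by 0.65 ± 0.17. Stk32a, 2.30 kb from Dpysl3, had 2 counts in allogeneic, 6 in syngeneic and 3 in naive libraries. Btg2, 32.1 kb from Chit1, had 206 ± 27.5 CPM in allogeneic libraries, against 197 CPM in syngeneic ones, and was not called. Beside Muc20, Muc4 rose while the transferrin receptor gene Tfrc fell by 2.59 ± 0.33 to 40.8 ± 11.3 CPM in allogeneic libraries, against 255 CPM in syngeneic libraries. Erythroid markers moved the same way (12.0 to 33.7 CPM in allogeneic, 1783 to 4597 CPM in syngeneic libraries), and their part in the level of Tfrc was not tested. Other than Muc4, which overlaps Muc20, the tested neighbours that rose did so by 0.38 to 1.15. Rem2, at the top of that range, lost its call without allogeneic replicate 1 or 3 or any of the syngeneic replicates. Psmb5, which rose by 0.49 ± 0.15, lost its call without allogeneic replicate 1 or syngeneic replicate 2 or 3. The call of Zfp654 (0.38 ± 0.13) was lost without allogeneic replicate 2 or 3 or syngeneic replicate 1 or 3. It was also lost with only the 2 groups compared in the fit. The fall of Cage1 (-0.75) was not called without syngeneic replicate 2.

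**Figure D4:**
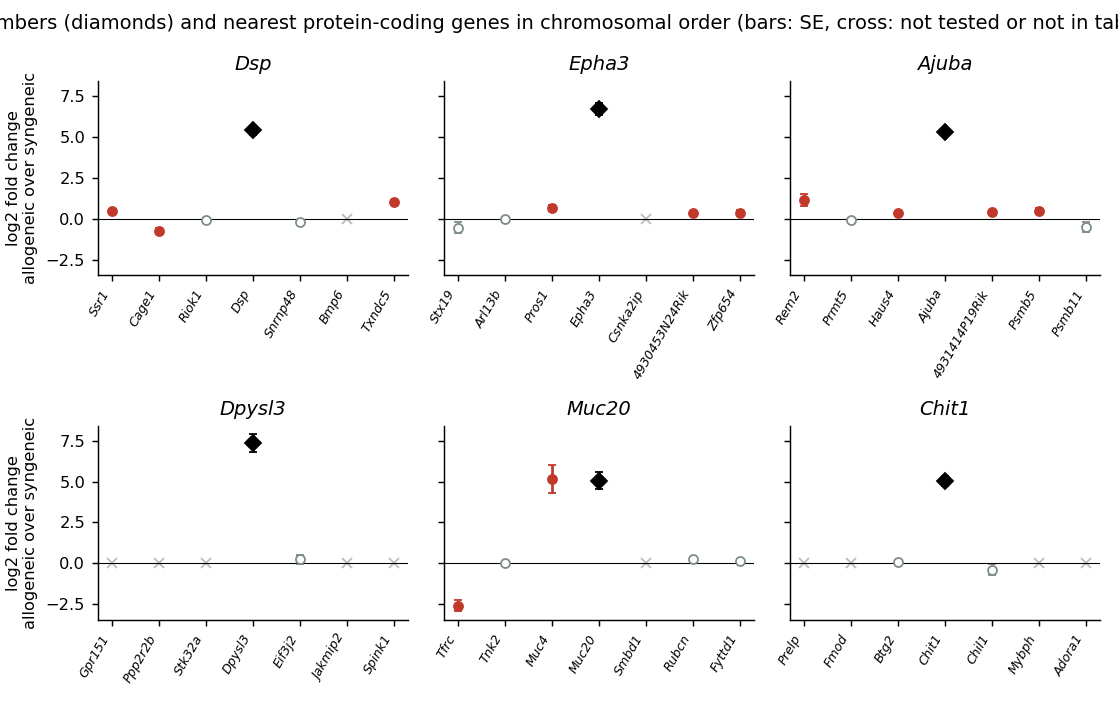
Log2 fold change in allogeneic over syngeneic libraries of each gene (diamond) and its 3 nearest protein-coding genes on either side, in chromosomal order and not to distance; bars are the SE, filled points passed an edgeR adjusted p of 0.05, open points did not, and crosses were not tested or not in the table. Muc4 (5.15) is the 1 neighbour near the height of its member.

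Markers of the cell types in which the 6 genes are best known were compared with the genes themselves. Of 12 epithelial markers 8 were in the table, and they summed to 8.55 to 11.3 CPM in allogeneic, 2.82 to 3.26 CPM in syngeneic and 4.62 to 5.21 CPM in naive libraries. Epcam had 6.48 ± 1.16 CPM in allogeneic, 1.33 ± 0.159 CPM in syngeneic and 2.77 ± 0.186 CPM in naive libraries. Cdh1 had 2.58 ± 0.235 CPM in allogeneic, 1.20 ± 0.189 CPM in syngeneic and 1.39 ± 0.334 CPM in naive libraries. Of the 8, 6 had a higher mean in allogeneic than in syngeneic libraries and 2 a lower one. Among those named after their values were seen, the keratin gene Krt8 had 2 counts in allogeneic libraries and 0 in the others, whereas its partner Krt18 had 317 in allogeneic, 25 in syngeneic and 31 in naive libraries. The claudin gene Cldn7 had 48 counts in allogeneic, 1 in syngeneic and 2 in naive libraries, and Cldn4 had 2 in allogeneic, 140 in syngeneic and 267 in naive libraries. Of 11 neural markers 10 were in the table, with sums of 9.32 to 14.1 CPM in allogeneic, 2.91 to 5.85 CPM in syngeneic and 4.16 to 4.74 CPM in naive libraries. Tubb3, a tubulin gene, made up most of the mean sum in allogeneic and naive but not in syngeneic libraries. It had 8.88 ± 2.80 CPM in allogeneic, 1.40 ± 0.355 CPM in syngeneic and 2.69 ± 0.258 CPM in naive libraries. Of the 10, 5 had a higher mean in allogeneic than in syngeneic libraries and 5 a lower one. The neuronal genes Rbfox3 and Nefl, also named after their values were seen, had 3 and 1 counts in allogeneic, 1 and 0 in syngeneic and 1 and 0 in naive libraries. Ncam1 and Map2, named in the same way, were among the 5 lower ones. Ncam1 had 1.07 ± 0.301 CPM in allogeneic, 1.88 ± 1.08 CPM in syngeneic and 0.159 ± 0.0390 CPM in naive libraries. Map2 had 0.678 ± 0.188, 1.03 ± 0.206 and 1.30 ± 0.212 CPM in the same order. The part of these cell types in the levels of Dsp, Ajuba, Muc20, Epha3 and Dpysl3 was not tested.

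The 15 macrophage and monocyte markers summed to 50.6 to 88.4 CPM in allogeneic, 53.4 to 217 CPM in syngeneic and 3.75 to 4.74 CPM in naive libraries. Csf1r had 1.71 ± 0.366 CPM in allogeneic, 13.7 ± 8.61 CPM in syngeneic and 0.131 ± 0.0346 CPM in naive libraries. Adgre1 had 0.538 ± 0.209 CPM in allogeneic, 2.76 ± 1.89 CPM in syngeneic and 0.0438 ± 0.0353 CPM in naive libraries, and C1qa had 0.369 ± 0.180 CPM in allogeneic, 2.46 ± 1.63 CPM in syngeneic and 0.00532 ± 0.00466 CPM in naive libraries. Of the 15, 14 had a lower mean in allogeneic than in syngeneic libraries, and all 15 a higher mean in allogeneic than in naive libraries. The exception against syngeneic libraries, named after its values were seen, was the lysosomal gene Cd68, at 22.7 ± 3.03 CPM in allogeneic, 8.46 ± 1.53 CPM in syngeneic and 3.10 ± 0.613 CPM in naive libraries. The 8 markers of lipid-laden macrophages summed to 162 to 205 CPM in allogeneic, 149 to 164 CPM in syngeneic and 204 to 243 CPM in naive libraries. Acp5 made up most of that sum, at 160 ± 18.9 CPM in allogeneic, 138 ± 11.3 CPM in syngeneic and 207 ± 22.8 CPM in naive libraries, and 4 of the 8 had a higher and 4 a lower mean in allogeneic than in syngeneic libraries. Of those that were higher, also named after their values were seen, Gpnmb had 15.4 ± 5.53 CPM in allogeneic, 3.21 ± 0.298 CPM in syngeneic and 1.70 ± 0.535 CPM in naive libraries. Fabp5 had 8.95 ± 2.59 CPM in allogeneic, 6.12 ± 1.32 CPM in syngeneic and 2.67 ± 0.330 CPM in naive libraries, and Spp1 had 1.501 ± 0.344 CPM in allogeneic, 0.875 ± 0.0909 CPM in syngeneic and 0.375 ± 0.0619 CPM in naive libraries. Trem2, Ctsk, Mmp12 and Lpl, named in the same way, were the 4 lower ones. Trem2 averaged 0.0868 ± 0.0322 CPM in allogeneic libraries, against 0.417 ± 0.260 CPM in syngeneic ones. For Ctsk these means were 0.229 ± 0.144 against 0.507 ± 0.108 CPM. They were 1.51 ± 0.115 against 2.75 ± 0.811 CPM for Mmp12, and 2.46 ± 0.416 against 3.93 ± 1.77 CPM for Lpl. The part of macrophages in the level of Chit1 was not tested. Dendritic cell markers summed to 1.83 to 4.21 CPM in allogeneic, 5.96 to 18.2 CPM in syngeneic and 1.58 to 2.80 CPM in naive libraries. Stromal markers summed to 3.36 to 5.95 CPM in allogeneic, 1.16 to 1.65 CPM in syngeneic and 1.27 to 1.35 CPM in naive libraries, with 6 of 8 higher on average in allogeneic than in syngeneic libraries. Pdgfrb made up most of the mean sum in allogeneic libraries only, at 3.35 ± 1.40 CPM in allogeneic, 0.634 ± 0.272 CPM in syngeneic and 0.647 ± 0.211 CPM in naive libraries. Col1a1 had 0.814 ± 0.109 CPM in allogeneic, 0.441 ± 0.0709 CPM in syngeneic and 0.514 ± 0.102 CPM in naive libraries, and Col1a2, named after its values were seen, 0.0588 ± 0.0432 CPM in allogeneic, 0.219 ± 0.0301 CPM in syngeneic and 0.0494 ± 0.0795 CPM in naive libraries. Endothelial markers, mostly Pecam1, summed to 92.0 to 122 CPM in allogeneic, 108 to 119 CPM in syngeneic and 219 to 222 CPM in naive libraries. B-cell markers summed to 13.4 to 15.5 CPM in allogeneic, 16.3 to 20.6 CPM in syngeneic and 11.6 to 14.2 CPM in naive libraries.

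**Figure D5:**
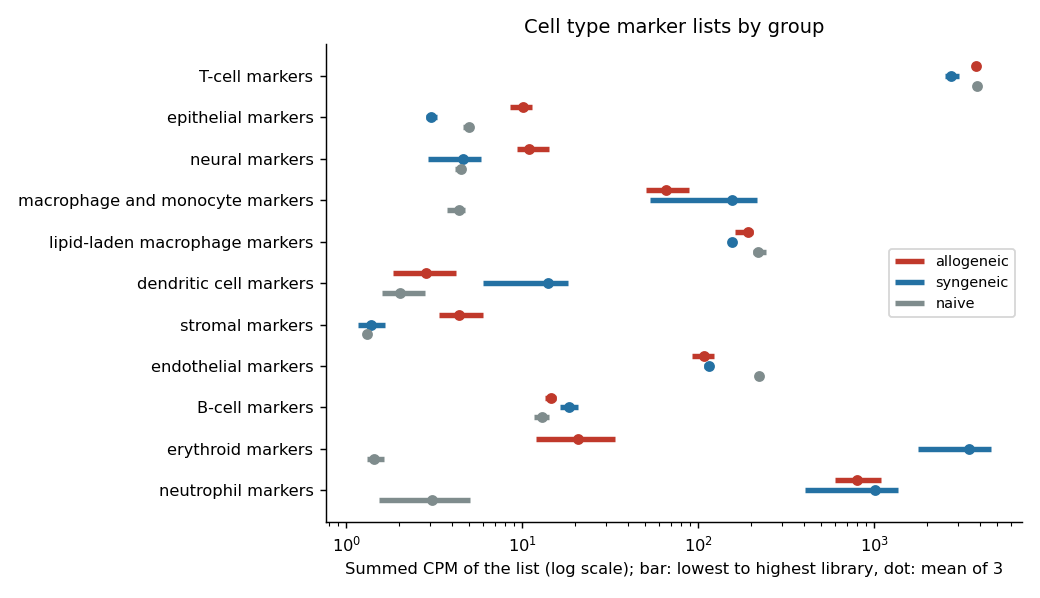
Summed CPM of each cell type marker list on a log scale, with a bar from the lowest to the highest of the 3 libraries of a group and a dot at their mean. Epithelial, neural and stromal markers lie at a few CPM with allogeneic libraries highest, and macrophage markers reach 217 CPM in syngeneic libraries.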

How the data were processed

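The authors deposited raw counts per gene for 9 libraries of total RNA made with ribosomal RNA depletion and a stranded kit, per the labels. Per the submitters' processing notes, the tools were HTSeq 0.6.1, Bowtie2 2.2.1, TopHat2 2.0.13 and FastQC 0.11.3, with the GRCm38 build; no source used here gives the strand setting or annotation release. Groups came from the transplant labels, since the strain tag names 1 recipient strain for every library. Transplant replicates are pools of recipients. The p-values thus weigh a group difference against the spread between these libraries, estimated over all groups together. The spread between single recipients was not measured.

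The 6 genes, the related gene lists and the markers were chosen with earlier results of these data known. Symbols and coordinates came from GENCODE M21. CPM used column totals. In edgeR 4.0.16, filterByExpr kept 19609 genes, TMM scaled them, and 1 quasi-likelihood model of all libraries with group as its only term was tested, with Benjamini-Hochberg adjustment over all genes and calls under 0.05. Counts of 19609 genes were simulated for allogeneic against syngeneic libraries, with changes set only in genes with a mean over 1 CPM. The model recovered 38% of 1.5-fold and 77% of 2-fold changes, and recovery in genes below that level was not measured. Named related genes were up to 3 called genes per list and comparison with the largest change, preferring a mean of at least 0.5 CPM, and the most abundant; all neighbours, and for each member the 3 most alike genes, could be named. The numbers of counts limit precision, and intervals cover counting error only. Alternatives changed the scaling, filter, test, samples, limits and replicate block. R 4.3.3, limma 3.58.1, DESeq2 1.42.0, Python 3.11.15, pandas 2.3.3 and matplotlib 3.10.9 were used.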

Additional observations from a re-analysis of the deposited data

How the results depend on the processing

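Over the alternative runs, the log2 ratio of allogeneic over syngeneic means was 5.23 to 5.64 for Dsp, 5.13 to 5.51 for Ajuba, 4.73 to 5.58 for Muc20, 6.42 to 7.26 for Epha3, 6.90 to 7.89 for Dpysl3 and 4.72 to 5.23 for Chit1. The sign of these ratios was set by the choice of the 6 genes, so the ranges show only how their size depends on the processing. Counts of calls stayed within 1.5 times in 137 of 140 settings. The 3 others were limits on the shape shared by 95 genes, which 39 genes had under 0.25 CPM, 32 at 2 CPM or more in allogeneic libraries and 257 under 1.1 CPM, the last added after seeing the data; fewer genes can pass the stricter limits. Leaving out 1 library gave 6930 to 9123 genes called in allogeneic against syngeneic, 9881 to 10971 in allogeneic against naive and 6347 to 8430 in syngeneic against naive libraries, and 95 to 110 genes of that shape. For the related genes it gave 29 to 31 rising and 20 to 27 falling in allogeneic against syngeneic, 39 to 42 and 19 to 22 in allogeneic against naive, and 26 to 37 and 12 to 15 in syngeneic against naive libraries. Dsg2 in allogeneic against naive libraries was 0.50 with all libraries and ranged from -1.01 without allogeneic replicate 1 (edgeR adjusted p = 0.0136) to 0.91 without replicate 2; the cause was not tested. Of 2768 values of single related or neighbouring genes, 2677 kept their side of the threshold, 74 lost and 16 gained a call. Of the 2677, 36 changed sign, none of them called in either setting. With the replicate number as a block, 8669, 11226 and 8034 genes were called in allogeneic against syngeneic, allogeneic against naive and syngeneic against naive libraries, in place of 8832, 11315 and 8213. Same-numbered libraries deviated together in 2 of 9 pairs (r over 0.1; range -0.17 to 0.33), and 5 of 18 comparisons were best with the own number, so the numbers were not taken to pair libraries. Naive levels of Chit1, Dpysl3 and Muc20 rest on 2, 18 and 21 counts, which limits their ratios over naive libraries.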
